A study of Mus musculus with 6 samples.

Results

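The imprinted Dlk1-Dio3 miRNA cluster was read here in whole lungs of newborn mice that had breathed room air or hyperoxia. A list of 45 miRNA names defined the cluster. An assay belonged to it when its name, without the species prefix, an assay number or the arm ending, was on that list, and assays of minor strands (marked # or *) were kept apart. The rule found 74 of 768 wells, 49 of them on the first of 2 assay cards and 25 on the other, and matched 44 of the 45 names (only mmu-miR-341 had no well). One of these wells, a rat-named miR-666 assay, belongs only if the ending of its name is read as an assay number, and it entered no test. Of the 74 wells, 60 carried a mouse name, 8 a rat name and 6 a human name, and 24 of the miRNA names had more than 1 well.

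Both groups were 7 days old. The room air group (3 lungs) had been kept in ordinary air, and the hyperoxia group (3 lungs) in 95% oxygen for 7 days from less than 12 h after birth, while the nursing dams were rotated daily between the chambers. Whole right lung was taken after perfusion of the pulmonary artery, so each value averages every cell type of the lung. The sources used here give no strain, genotype or sex and do not say whether a sample was 1 animal. In this text a sample is called a lung, though it may hold more than 1 animal. The p-values measure the spread between these samples. For values from the program limma, standard errors and confidence intervals included, each assay's spread was drawn toward a common value of all assays tested.

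The genes of the Dlk1-Dio3 region are expressed from a single parental chromosome. Dlk1, Rtl1 and Dio3 code for proteins and are read from the paternal copy, whereas the long RNAs Meg3, Rian and Mirg and the miRNAs between and within them are read from the maternal copy. The miRNAs are abundant in embryo, placenta and brain and fall in most other tissues after birth, the lung among them. A group of hairpins (miR-127, miR-136, miR-431, miR-433 and miR-434) lies opposite the Rtl1 coding sequence and pairs with it perfectly, so that these miRNAs can cut the paternal Rtl1 transcript.

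All 45 hairpins lie on the plus strand of mouse chromosome 12 (RefSeq, build GRCm38.p6) between positions 109563692 and 109743795, a stretch of 180 kb between Dlk1 (109452485 to 109463336) and Dio3 (110279230 to 110281097). By gene span, 1 hairpin (mmu-miR-770) lies within Meg3, 10 within the span of Rtl1, 2 within Rian, 24 between Rian and Mirg, and 8 within Mirg. RefSeq mature sequences were matched to 51 of the 60 mouse-named wells. Of these wells 20 carried the arm in their name, and for 31 the arm was taken from general knowledge of the assay. The hairpins opposite Rtl1 are shown first because their values are described first and in most detail. Capitals mark the seed, bases 2 to 8, which selects targets.
miR-431-5p: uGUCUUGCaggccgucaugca
miR-433-3p: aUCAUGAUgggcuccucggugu
miR-127-3p: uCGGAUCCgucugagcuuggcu
miR-434-5p: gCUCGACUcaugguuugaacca
miR-434-3p: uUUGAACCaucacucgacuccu
miR-136-5p: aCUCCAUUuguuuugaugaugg

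The next set holds further mature miRNAs whose values are given in detail below: the ones with the earliest signal, the ones whose groups did not overlap, and the ones with the largest estimates.
miR-496a-3p: uGAGUAUUacauggccaaucuc
miR-380-5p: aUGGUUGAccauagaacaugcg
miR-380-3p: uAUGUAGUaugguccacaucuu
miR-409-3p: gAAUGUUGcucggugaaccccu
miR-540-5p: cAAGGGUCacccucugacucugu
miR-540-3p: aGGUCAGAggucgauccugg
miR-323-3p: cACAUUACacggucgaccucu
miR-329-3p: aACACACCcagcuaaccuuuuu
miR-377-3p: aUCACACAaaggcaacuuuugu

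The 48 different mature sequences had 48 different seeds, so no matched members shared one. In 3 pairs the seeds differed by a single base. These pairs are shown because such relatives can be hard to separate in a PCR assay: miR-379-5p and miR-411-5p have the same base at 14 of 21 positions, miR-376b-3p and miR-376a-3p at 18 of 21, and miR-300-3p and miR-381-3p at 19 of 22.
miR-379-5p: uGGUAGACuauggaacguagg
miR-411-5p: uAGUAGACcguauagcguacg
miR-376b-3p: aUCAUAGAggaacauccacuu
miR-376a-3p: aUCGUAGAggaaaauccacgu
miR-300-3p: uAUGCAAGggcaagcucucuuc
miR-381-3p: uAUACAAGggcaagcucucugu

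Each assay is a reverse transcription and TaqMan PCR for 1 miRNA, and its value is the threshold cycle (Ct), the cycle at which the signal crosses a set brightness. A lower Ct is more template. A Ct of 35 or later, or none, was taken as not detected. Levels are given as the mean Ct of a reference set of assays on the same card minus the Ct of the assay, a log2 scale on which 1 unit is a 2-fold difference. The reference set was every miRNA assay detected in all samples used, 282 first-card and 249 second-card assays. Ct values of different assays do not rank the miRNAs by abundance, since each primer set has its own efficiency.

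On the second card, room air replicate 1 and hyperoxia replicate 2 shared their values: 308 of the 309 wells that amplified in both had identical Ct, 22 of 22 among the members, against 0 of 312 on the first card. Those values were left out of both samples. Comparisons therefore rest on 3 against 3 lungs on the first card and 2 against 2 on the second. The reference mean Ct of the first card was 22.03, 22.48 and 22.60 in room air against 23.47, 22.61 and 23.31 in hyperoxia. Hyperoxia replicates 1 and 3 thus came up later than every room air sample, while hyperoxia replicate 2 was level with room air replicate 3. Lung markers were present: all 8 epithelial assays (miR-200 family, miR-141, miR-375) and both miR-126 assays of endothelium could be tested.

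Most cluster members were detected in the day 7 lung, as were most miRNA assays. On the first card 44, 43 and 45 of the 49 member wells were detected in room air against 47, 45 and 43 in hyperoxia (87.8% to 95.9%), where 81.9% to 85.1% of all 375 miRNA wells were. On the second card 21 and 22 of 25 were detected in room air, and 23 and 19 in hyperoxia (76.0% to 92.0%), where 71.5% to 76.8% of all 375 were. The earliest signal was that of mmu-miR-496, a Mirg miRNA, at Ct 16.57, 16.79 and 16.60 in room air against 16.51, 17.53 and 16.82 in hyperoxia. It was followed in room air by mmu-miR-411 and mmu-miR-127 (mean Ct 18.09 ± 0.24 and 18.10 ± 0.41, SD, n = 3), mmu-miR-434-3p (18.57 ± 0.22), mmu-miR-376c (19.58 ± 0.24) and mmu-miR-431 (19.69 ± 0.33). The spreads of mmu-miR-411 and mmu-miR-127 overlap, as do those of mmu-miR-376c and mmu-miR-431. The hairpin within Meg3 was hardly read: mmu-miR-770-3p gave no signal in any of the 6 samples, and mmu-miR-770-5p was detected in 1 of 2 samples of each group.

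Testing a member required its detection in 2 or more samples of both groups, which left 61 of 74 wells (44 first-card and 17 second-card wells). With limma and Benjamini-Hochberg adjustment over all 551 miRNA assays tested, no member passed an adjusted p of 0.05, and neither did any other assay (0% called). At an unadjusted p under 0.05, limma marked 2 of the 61 members (3.28%), both lower in hyperoxia, against 50 of all 551 assays (9.07%). Which share was the larger depended on the setting. Without hyperoxia replicate 3, 0 of 43 members and 36 of 292 assays (12.3%) were marked. Without hyperoxia replicate 2 it was 6 of 60 members (10%) against 41 of 542 assays (7.56%), and with the small RNA control wells as reference 7 of 61 (11.5%) against 54 of 551 (9.8%). The 13 wells that were not tested were 5 first-card wells (rno-miR-377, rno-miR-543, rno-miR-673, mmu-miR-770-3p, mmu-miR-679) and 8 second-card wells.

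As a group the members lay slightly to the lower side. The log2 fold change (hyperoxia minus room air) was negative in 41 of 61 tested members (67.2%), with a median of -0.28 and a range from -2.52 to 4.02. Over all tested assays it was negative in 319 of 551 (57.9%), with a median of -0.12. On the first card the members' median was -0.30 with 30 of 44 negative, and on the second -0.25 with 11 of 17 negative. Ct itself, before any reference was subtracted, was later in hyperoxia in 55 of 61 members and in 427 of 551 assays. These totals mix the cards in unlike shares. On the first card it was 41 of 44 members and 262 of 302 assays, and on the second 14 of 17 and 165 of 249. With the small RNA control wells as reference the members' median was -0.64 and that of all assays -0.48, and with the first card's reference used for both cards these were -0.17 and 0.18. The members' median stayed below that of all assays under each of these references. The first card's reference, however, moves only second-card values. Those were 17 of the 61 tested members but 249 of all 551 assays, so the gap between -0.17 and 0.18 depends on the mix of cards. On the first card the members' median of -0.30 stood beside -0.13 for all assays. In a whole-lung sample, fewer cells of a type and less RNA per cell cannot be told apart.

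**Figure D1:**
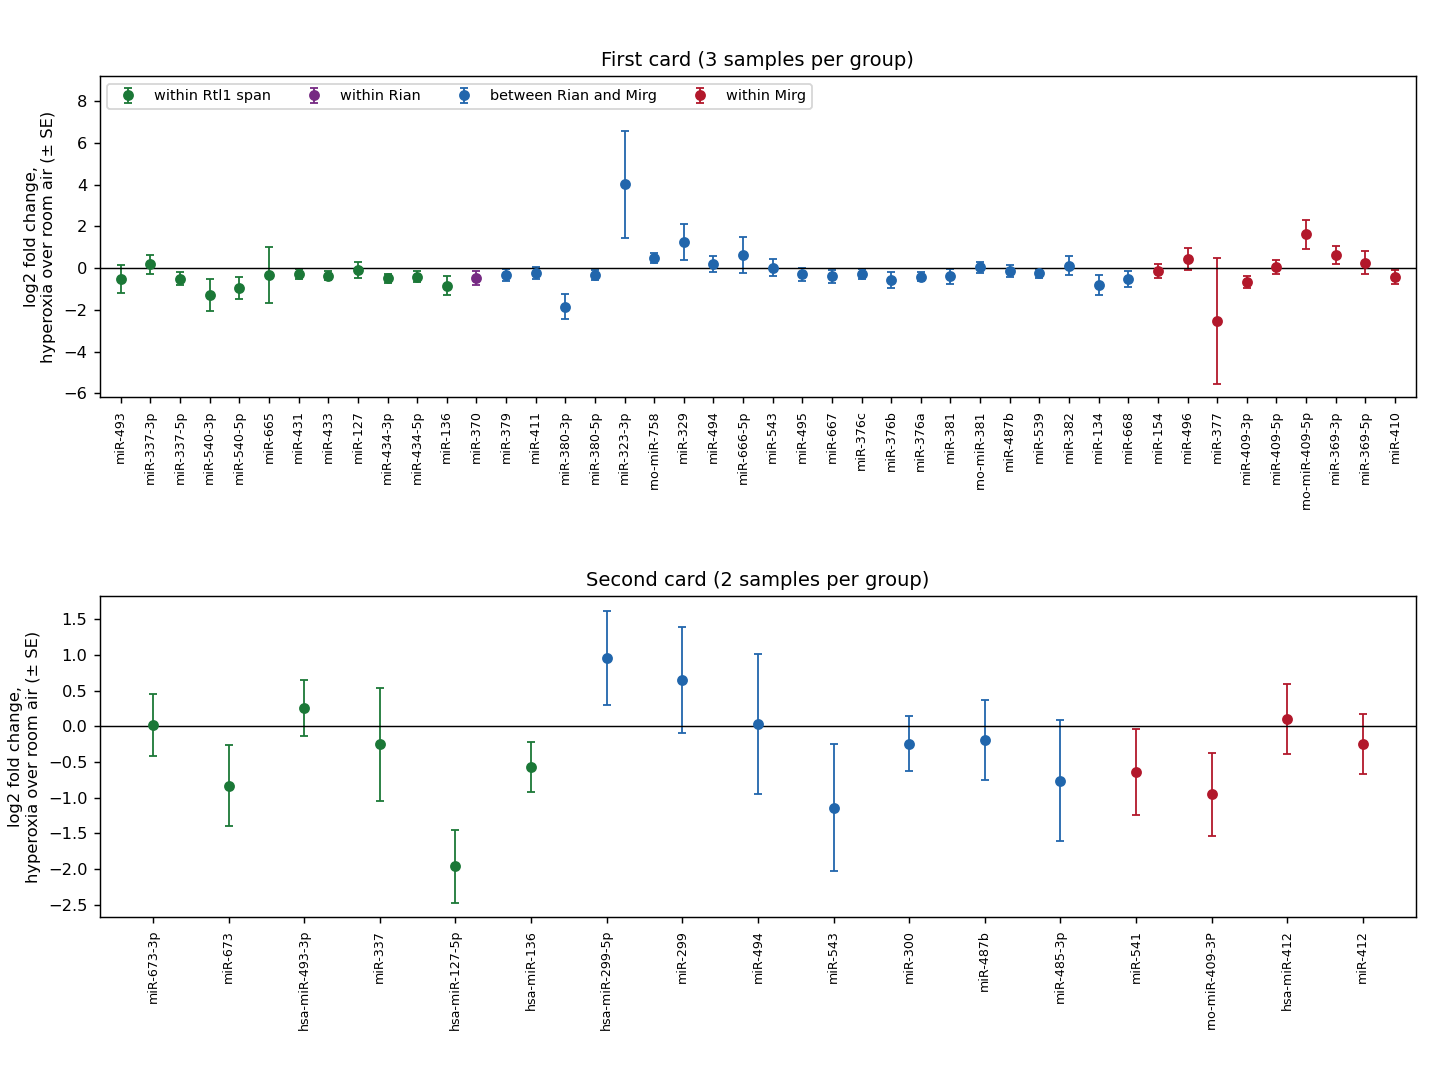
Log2 fold change (hyperoxia over room air, y axis, with its standard error) of the 61 tested members in chromosomal order of their hairpins (x axis), first card above and second card below, coloured by place in the locus. Most points lie just below 0, the widest bars belong to mmu-miR-377 and mmu-miR-323-3p, and no member passed the adjusted threshold.

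Summarised per lung, the members of room air replicate 3 stood highest. For the 40 first-card members detected in all samples, each assay was centred on its mean over the 6 samples and the median was taken in each sample. It was 0.00, -0.01 and 0.40 in room air against -0.04, -0.06 and -0.20 in hyperoxia. The groups did not overlap, but 2 of the room air values lay within 0.1 of the hyperoxia values. The difference of -0.23 had an exact permutation p of 0.1 (two-sided), the smallest that 3 against 3 can give. Without room air replicate 3 the difference was -0.08 with an exact p of 0.3. The 242 other first-card miRNA assays gave 0.03, 0.11 and 0.06 in room air against 0.01, -0.18 and -0.03 in hyperoxia, a difference of -0.13 with an exact p of 0.1. On the second card, the 17 members detected in all 4 samples used had medians of -0.16 and 0.47 in room air (replicates 2 and 3) and 0.17 and -0.44 in hyperoxia (replicates 1 and 3), and the groups overlapped.

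**Figure D2:**
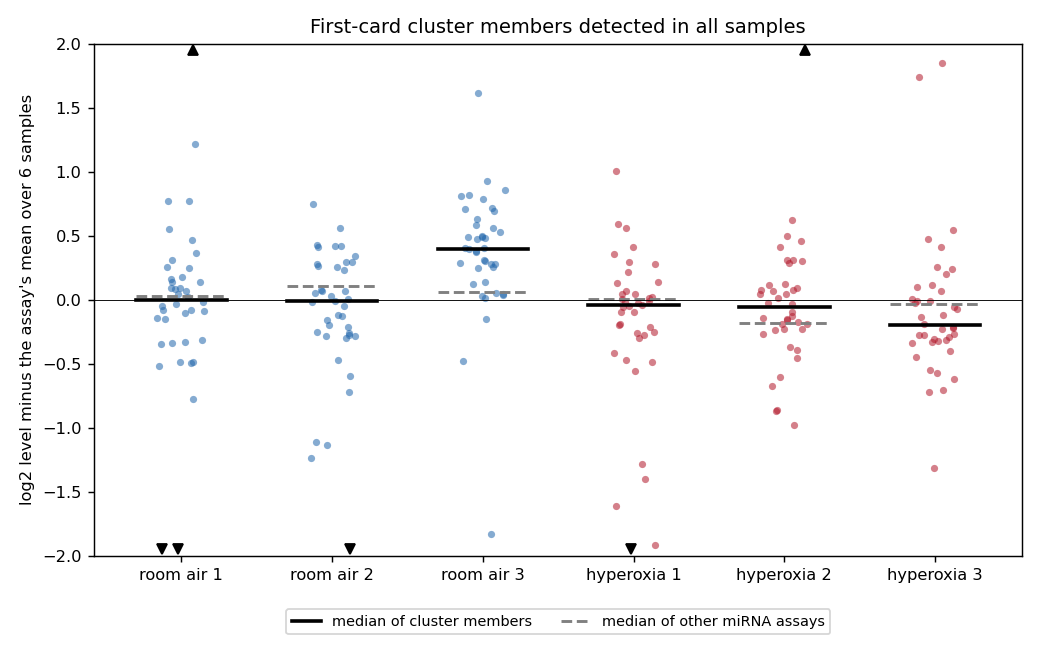
Log2 level of the 40 first-card members detected in all 6 samples, each minus its own mean (y axis), by sample (x axis). Points are assays, triangles mark values beyond the axis, solid lines are the members' medians and dashed lines those of the 242 other assays. Room air replicate 3 has the highest member median, 0.40, and hyperoxia replicate 3 the lowest, -0.20.

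Few members stood above the room air range in a hyperoxia lung. Of the 40 first-card members, 3, 3 and 4 exceeded every room air value in hyperoxia replicates 1, 2 and 3 (7.5%, 7.5% and 10%), where 25.2%, 17.4% and 24.1% of all 282 reference assays did. Below every room air value were 16, 16 and 21 members (40%, 40% and 52.5%), against 36.9%, 42.9% and 36.2% of all reference assays. The upper end of the range leans on room air replicate 3, where the members stood highest. Hyperoxia values all lay above room air in 2 of 44 first-card members and 19 of 302 first-card assays. Without that replicate it was 6 of 43 and 41 of 298. All lay below in 6 of 44 and 49 of 302, and without it in 13 of 43 and 86 of 298. The members also varied together a little within the groups: after each group's mean was removed, the median correlation between 2 members over the 6 samples was 0.16 and 59.2% of pairs were positive, against 0.01 and 50.5% for all first-card assays. These correlations share libraries and the reference and are a description.

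The 10 hairpins within the Rtl1 span gave mostly negative values. Of their 18 tested assays 15 had negative values, the median was -0.45 and the values ran from -1.96 to 0.26. The hairpins opposite Rtl1 (miR-127, miR-136, miR-431, miR-433, miR-434) were negative in 8 of 8 tested assays, also at a median of -0.45, and in 7 of 8 with the first card's reference used for both cards, where hsa-miR-136 was at 0.09. Without room air replicate 3, 5 of their 6 first-card assays were negative. No difference between places in the locus was tested.

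mmu-miR-434-3p had the smallest limma standard error of the tested members, a value that does not rest on the spread of its own levels alone. Its log2 level was 3.70, 3.86 and 3.85 in room air against 3.31, 3.41 and 3.25 in hyperoxia. The 3 hyperoxia lungs were all lower, with no overlap, at a log2 fold change of -0.48 ± 0.21 (SE), a level 1.40-fold higher in room air. The adjusted p from limma was 0.61, and the 95% confidence interval ran from -1.01 to 0.05. The opposite arm of the same hairpin, mmu-miR-434-5p, was at -0.41 ± 0.25 with overlapping groups.

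mmu-miR-136 had log2 levels of -0.56, -0.50 and -0.43 in room air against -2.32, -0.81 and -0.91 in hyperoxia. Hyperoxia replicate 1 was far lower than the other 2, which lay close below the room air lungs. The log2 fold change was -0.85 ± 0.46 (adjusted p from limma 0.68), and -0.37 without that replicate. A human-named assay for the same miRNA on the second card, hsa-miR-136, read 0.58 and 0.98 in room air against 0.15 and 0.27 in hyperoxia, also without overlap (-0.57 ± 0.35).

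For mmu-miR-433, which was at -0.16, -0.48 and -0.22 in room air against -0.67, -0.70 and -0.59 in hyperoxia, the groups again did not overlap (log2 fold change -0.37 ± 0.22, adjusted p from limma 0.689). mmu-miR-431 was at 2.68, 2.77 and 2.59 in room air against 2.61, 2.34 and 2.23 in hyperoxia, and its groups overlapped (-0.28 ± 0.23).

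The arms of the miR-127 hairpin gave unlike estimates. mmu-miR-127, which reads the abundant 3p arm, had log2 levels of 3.87, 4.01 and 4.93 in room air against 4.50, 4.07 and 3.93 in hyperoxia. The groups overlapped, with a log2 fold change of -0.10 ± 0.38, and of 0.22 without room air replicate 3. The 5p arm, read by hsa-miR-127-5p on the second card, came up late, at Ct 30.14 and 30.18 in room air against 32.83 and 31.80 in hyperoxia. Its log2 fold change was -1.96 ± 0.51, a level 3.90-fold higher in room air, with an unadjusted p of 0.0222 and an adjusted p of 0.446 from limma on 2 against 2 lungs. The Ct of 30.59 that room air replicate 1 and hyperoxia replicate 2 shared lies between the groups, and with that value kept in both samples the log2 fold change was -1.30, as it was with the first card's reference. Computed the deposited way, with U6 as reference and a Ct of 40 as a measurement, it was -1.0. The difference between the arms was not tested.

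The rest of the Rtl1 span was read by 10 tested assays. Both arms of miR-540 were lower on average, mmu-miR-540-3p at -1.28 ± 0.78 and mmu-miR-540-5p at -0.96 ± 0.54. In both, hyperoxia replicate 1 was lowest (levels of -5.75 and -6.28), hyperoxia replicate 2 lay within the room air range (-3.21 and -4.36), and without replicate 1 the values were -0.64 and -0.41. The arms of miR-337 pointed apart, mmu-miR-337-5p at -0.50 ± 0.32 and mmu-miR-337-3p at 0.18 ± 0.46, neither past the threshold and the latter at -0.18 with the control wells as reference. A second-card assay named mmu-miR-337 was at -0.25 ± 0.79, and at 0.41 with the first card's reference. The assays of miR-493 and miR-673 also lay on both sides of 0. mmu-miR-493 was at -0.53 ± 0.68 (-1.22 without room air replicate 2 and -0.06 without room air replicate 1), and hsa-miR-493-3p on the second card at 0.26 ± 0.39 (-0.12 with the control wells as reference). Of the second-card assays of miR-673, mmu-miR-673 was at -0.83 ± 0.57 (-0.17 with the first card's reference) and mmu-miR-673-3p at 0.02 ± 0.44. mmu-miR-665, detected in 2 of the 3 hyperoxia lungs, was at -0.34 ± 1.35.

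Within Rian only mmu-miR-370 could be tested, at levels of -0.66, -0.60 and 0.09 in room air against -0.65, -1.30 and -0.65 in hyperoxia. Its log2 fold change was -0.48 ± 0.34 and the groups overlapped.

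Between Rian and Mirg lie most of the miRNAs of the long run from miR-379 to miR-410, which neurons switch on with activity. The values of 18 of the 29 tested assays were negative, and the median was -0.24. Most of the strongly detected ones were close to 0. mmu-miR-379 was at -0.31 ± 0.29, mmu-miR-411 at -0.23 ± 0.27, mmu-miR-376c at -0.28 ± 0.25, mmu-miR-539 at -0.25 ± 0.23, mmu-miR-495 at -0.29 ± 0.31 and mmu-miR-667 at -0.39 ± 0.30. On the other side of 0 were mmu-miR-382 at 0.12 ± 0.47 and the first-card mmu-miR-494 at 0.21 ± 0.39. mmu-miR-134, a regulator of dendritic spines, was at -0.82 ± 0.47, with levels of 0.94, 0.95 and 0.52 in room air against 0.18, 0.68 and -0.92 in hyperoxia. Its low mean comes mostly from hyperoxia replicate 3, without which it was -0.40.

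mmu-miR-380-3p was the other member with an unadjusted p under 0.05. Its Ct was 30.20, 30.40 and 29.92 in room air against 33.94, 35.16 and 32.15 in hyperoxia, so the signal was late and hyperoxia replicate 2 counted as not detected. The log2 fold change over the remaining 5 lungs was -1.85 ± 0.61, a level 3.61-fold higher in room air, with an unadjusted p of 0.0322 and an adjusted p of 0.491 from limma. With a ceiling of 38, which admits hyperoxia replicate 2, it was -2.80. The 5p arm of the same hairpin, mmu-miR-380-5p, with a room air Ct of 23.88 ± 0.35, was at -0.35 ± 0.24.

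In the miR-376 family, where the seeds of miR-376a-3p and miR-376b-3p differ by 1 base, mmu-miR-376a had levels of 0.17, 0.05 and 0.37 in room air against -0.30, -0.10 and -0.21 in hyperoxia. The groups did not overlap, at a log2 fold change of -0.40 ± 0.22 (adjusted p from limma 0.68). mmu-miR-376b was at -0.57 ± 0.37 with overlapping groups. A second assay named mmu-miR-376c, on the second card, was the only member well detected in all used samples of 1 group and in none of the other: Ct 32.54 and 31.85 in hyperoxia, and no amplification in either room air sample used. The value shared by room air replicate 1 and hyperoxia replicate 2 was 31.15, so a signal also stands under a room air label in the table, and the first-card assay of that name read Ct 19.31 to 21.23 in all 6 lungs.

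mmu-miR-323-3p had the highest estimate of the cluster and a wide error. Its Ct was 30.56, 24.53 and 23.59 in room air against 25.30, 18.69 and 24.92 in hyperoxia. Room air replicate 1 was about 6 cycles late and hyperoxia replicate 2 about 6 cycles early, while the other 4 lungs lay between 23.59 and 25.30. The log2 fold change was 4.02 ± 2.55, and 1.68 without room air replicate 1 or 2.15 without hyperoxia replicate 2. mmu-miR-329 was at 1.27 ± 0.87, and at 0.47 without room air replicate 1. Both assays sit in row G of the card and are the only 2 members there, with a median within-group SD of 2.46. The median was 0.32 for the 24 first-card members with a mean Ct under 25, which include mmu-miR-323-3p. For the 20 later ones, which include mmu-miR-329, it was 0.67. Assays outside the cluster in row G of the first card ran from -4.43 ± 2.88 (mmu-miR-324-5p) to 9.10 ± 3.28 (mmu-miR-302a), with mmu-miR-320 at -0.34 ± 0.35.

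rno-miR-758 was 1 of 2 first-card members whose hyperoxia values all lay above room air, though by a hair: its highest room air level was -5.261 and its lowest hyperoxia level -5.260. The log2 fold change was 0.49 ± 0.26 (adjusted p from limma 0.667). On the second card hsa-miR-299-5p was at 0.96 ± 0.66 and mmu-miR-299 at 0.65 ± 0.74, with overlapping groups in both. mmu-miR-666-5p was at 0.63 ± 0.86, and at -0.11 without hyperoxia replicate 3.

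Within Mirg, 7 of 13 tested assays had negative values and the median was -0.14, which became 0.02 when samples were centred on the median and 0.07 with the first card's reference. mmu-miR-409-3p was the clearest, at levels of 1.75, 2.02 and 2.00 in room air against 1.50, 1.42 and 0.87 in hyperoxia. All 3 hyperoxia lungs were lower, at a log2 fold change of -0.66 ± 0.27, a level 1.58-fold higher in room air (unadjusted p 0.0555, adjusted p 0.589 from limma). A rat-named assay of the same arm on the second card, rno-miR-409-3P, read 2.84 and 3.02 in room air against 2.63 and 1.33 in hyperoxia, also without overlap (-0.95 ± 0.58, and -0.29 with the first card's reference).

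The 5p arm of miR-409 gave values above 0. mmu-miR-409-5p, detected in 2 of 3 room air lungs under a Ct of 35, was at 0.07 ± 0.34, and at 3.28 with a ceiling of 38 that admits the third lung. The rat-named rno-miR-409-5p, a late assay, was detected at Ct 29.62 and 30.29 in 2 of 3 room air lungs and at 28.69, 29.86 and 29.08 in hyperoxia. Its log2 fold change was 1.62 ± 0.68 (adjusted p from limma 0.61), the other first-card member with all detected hyperoxia values above room air. The arms were not tested against each other.

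mmu-miR-377 had the most negative estimate of the cluster, and a single lung set it. Its Ct was 18.29 in room air replicate 1 and 29.58 and 28.92 in the other room air lungs, against 30.75, 28.07 and 27.80 in hyperoxia. The log2 fold change was -2.52 ± 3.03, and 0.96 without room air replicate 1. Of the other Mirg miRNAs, mmu-miR-496 was at 0.46 ± 0.53, mmu-miR-410 at -0.42 ± 0.34, mmu-miR-154 at -0.14 ± 0.34, mmu-miR-369-3p at 0.62 ± 0.44, mmu-miR-369-5p at 0.27 ± 0.55 and, on the second card, mmu-miR-541 at -0.64 ± 0.60.

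**Figure D3:**
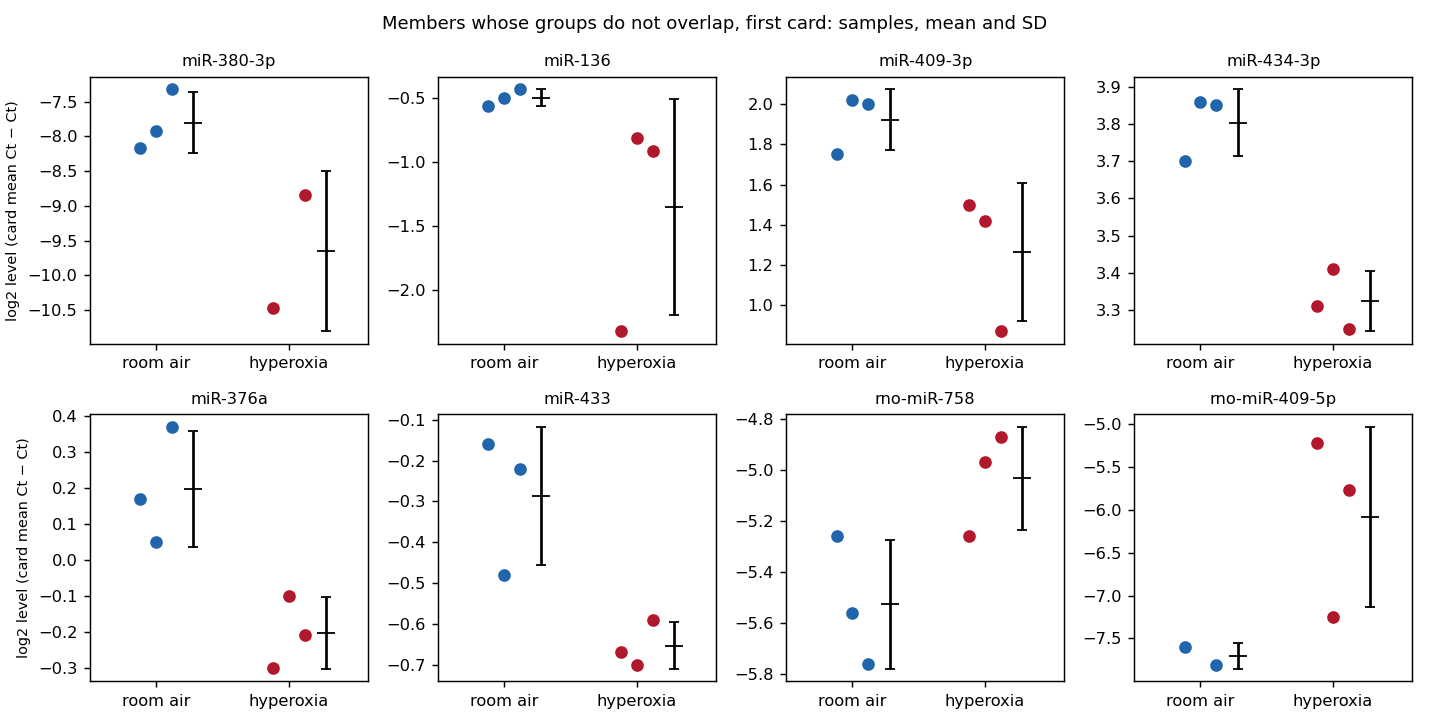
Log2 level (card reference mean Ct minus Ct, y axis) in each lung for the 8 first-card members whose groups did not overlap, by group (x axis). Points are lungs, and bars give the mean and SD. In 6 members the hyperoxia lungs were lower and in rno-miR-758 and rno-miR-409-5p they were higher.

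Counted over the first card, with only detected samples compared, the groups did not overlap in 6 of 44 tested members with hyperoxia lower (13.6%) and in 2 with hyperoxia higher (4.55%). Among all 302 first-card assays tested, 16.2% did not overlap with hyperoxia lower and 6.29% with hyperoxia higher. On the second card, 3 of 17 members did not overlap with hyperoxia lower (17.6%) and none with hyperoxia higher, where all 249 assays gave 16.9% and 12.4%. Neither card's lower share was far from its background. With the control wells as reference, 20 of 44 first-card members did not overlap with hyperoxia lower (45.5%), and so did 32.5% of all first-card assays.

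Hairpins read by several assays show how far the members' values repeat. Counting minor strands, 23 hairpins had more than 1 tested assay. In 12 all of them were negative, in 3 all were positive and in 8 they were mixed, and the median gap between the highest and lowest log2 fold change of a hairpin was 0.36. Over 5 pairs of equally named assays detected on both cards in the same 4 lungs, the second card came up 0.63 to 6.67 cycles later (median 1.54), the widest gap being that of mmu-miR-494 (mean Ct 23.62 and 30.29). mmu-miR-381 and rno-miR-381, both on the first card, had room air Ct of 28.38 ± 0.44 and 24.18 ± 0.10 and log2 fold changes of -0.39 ± 0.35 and 0.04 ± 0.26. mmu-miR-543 was at 0.02 ± 0.41 in its first-card well and -1.14 ± 0.89 in the other. In that second-card well it was -0.47 with the first card's reference and -0.45 the deposited way (U6 as reference, a Ct of 40 as a measurement). With the replicate block, which there compares only replicate 3 of each group, it was -2.66.

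**Figure D4:**
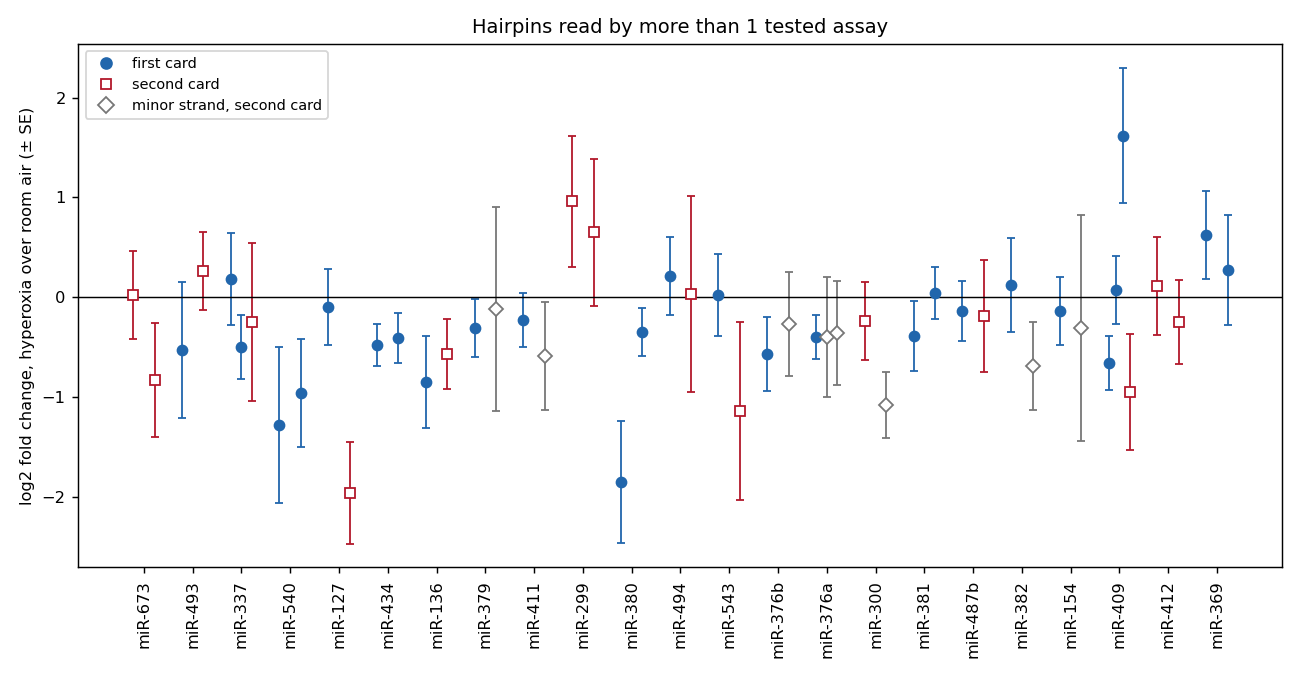
Log2 fold change (hyperoxia over room air, y axis, with its standard error) for the 23 hairpins with more than 1 tested assay, in chromosomal order (x axis). Filled circles are first-card assays, open squares second-card assays and diamonds minor strands. The assays of miR-127, miR-380 and miR-409 spread widest, and those of miR-434 and miR-376a lie close together.

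The minor strands of the same hairpins, read by 10 second-card wells, could be tested in 8. All 8 had negative values around a median of -0.38, from -1.08 for mmu-miR-300# to -0.12 for rno-miR-379#. That direction depended on the reference: 4 of 8 were negative when samples were centred on the median and 2 of 8 with the first card's reference. Of further names of this locus outside the list (among them miR-544, miR-654 and miR-1188), 4 of 5 tested assays had negative values (median -0.45). At other imprinted loci, 3 of 6 were negative (median 0.13). The 3 positive ones (mmu-miR-296-3p, mmu-miR-296-5p and mmu-miR-298) all sit in row G of the first card, and mmu-miR-335-3p, from Mest, was at -3.20 ± 0.56 (adjusted p from limma 0.314).

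Markers of lung cell types were set beside these values. The median log2 fold change was -0.07 for 8 epithelial assays, -0.38 for 2 endothelial, 0.24 for 7 mesenchymal, 0.74 for 6 leukocyte, 0.24 for 3 erythroid, -0.39 for 6 striated muscle and 0.12 for 4 neural assays. No marker passed the adjusted threshold in limma. Some lists held assays of both directions. The leukocyte mmu-miR-150 (-1.09 ± 0.27), the mesenchymal mmu-miR-145 (-0.68 ± 0.23) and the erythroid hsa-miR-144 (-1.29 ± 0.32) had hyperoxia values all below room air. Their unadjusted limma p were 0.00819, 0.0294 and 0.0192. Yet 4 of 6 leukocyte, 4 of 7 mesenchymal and 2 of 3 erythroid assays were positive, among them mmu-miR-223 (0.94 ± 0.55), mmu-miR-199a-5p (0.68 ± 0.61) and mmu-miR-451 (0.71 ± 1.20). Striated muscle assays were negative in 5 of 6, among them mmu-miR-208b at -1.06 ± 0.25 (unadjusted limma p 0.00634). The positive one, hsa-miR-206 on the second card, was at 1.31 ± 0.61 with both hyperoxia values above room air. The mean level of the 5 on the first card was -2.14 to -1.42 in room air and -2.98 to -2.05 in hyperoxia. Both miR-126 assays were negative, at a mean level of 8.60 to 9.30 in room air and 8.45 to 8.78 in hyperoxia. Neural markers, of a tissue rich in these miRNAs, were at -4.76 to -4.34 and -4.87 to -4.22, and 1 of their 5 wells could not be tested. The part of any of these cells in the members' values was not tested.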

How the data were processed

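Lung RNA of 3 room air and 3 hyperoxia samples was reverse transcribed with Megaplex primer pools A and B and pre-amplified for 12 cycles, per the labels' protocols. The authors deposited threshold cycles (Ct, another kind of unit, not normalized) for 768 wells. Ct carries no read depth, and the number of lungs limits the precision. Instrument and Ct threshold are not stated in the labels. On the second card, deposited assay numbers stand 3 wells from their names (105 of 105), and wells named U6 read 8.94 to 10.04, so names were used.

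Levels were centred per card as described. limma 3.58.1 (R 4.3.3) was fitted once to all 551 assays, with group as the only term, two-sided, and was tested on simulated data. Named members were those with an unadjusted p under 0.05, the 6 highest and 6 lowest fold changes, the 6 lowest Ct, the hairpins opposite Rtl1, members with several assays and members detected in 1 group only, plus minor strands by counts. Members without overlap and other first-card members were added with values in view. Alternatives covered the Ct ceiling, reference, shared values, row G of the first card, filters, replicate block, mean trend and each left-out sample. The members and lists were chosen with earlier results of these data known.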

Additional observations from a re-analysis of the deposited data

How the results depend on the processing

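No member passed the adjusted threshold of 0.05 in limma under any of the 20 alternatives, and the smallest adjusted p of a named member was 0.123 (mmu-miR-369-3p, without room air replicate 3). Over all assays at most 1 passed, and it was no member. Leaving out 1 lung also changed how many members were tested. Without room air replicate 1, 2 or 3, 44 of 59, 34 of 43 and 27 of 43 members were negative, the last being the lowest share. Without hyperoxia replicate 1, 2 or 3 it was 33 of 42, 40 of 60 and 30 of 43. Leaving out room air replicate 2 or 3 or hyperoxia replicate 1 or 3 removes the second card from the test. With the control wells as reference the members' median log2 fold change was -0.64, the per-sample median difference -0.59 (exact permutation p 0.1), 52 of 61 members were negative and 7 had an unadjusted p under 0.05, against 2. Computed the deposited way, with a Ct of 40 as a measurement and U6 as reference, the per-sample difference was -0.54 (exact permutation p 0.3).

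Both groups carry the same replicate numbers in the labels. On the first card, deviations of same-numbered samples correlated at -0.34, -0.23 and -0.18, and those of differently numbered samples at -0.25 to 0.36. With 3 lungs per group these values cannot show whether the numbers pair the lungs. With the replicate block the median of the first-card members was -0.29. On the second card only replicate 3 was left in both groups, so a block value there compares 1 sample with 1. With those values included the members' median was -0.37. The block turned the sign of the first-card mmu-miR-665 (0.01). It also turned the second-card hsa-miR-299-5p (-0.12), mmu-miR-299 (-0.44), mmu-miR-673 (0.07) and mmu-miR-673-3p (-0.52), each from replicate 3 of both groups alone.

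Of 1043 values of 56 named members under the alternatives, 994 kept their sign and 49, in 21 members, did not. The 994 include values that a setting could not move. For first-card members detected in all samples, settings that touch only the second card, the replicate block and the mean trend leave the estimate as it was. Second-card estimates do not respond to leaving out room air replicate 1 or hyperoxia replicate 2. The causes of the sign changes were not tested. Leaving out 1 lung each turned the sign of 12 members at an end of their ranges: mmu-miR-377 -4.46 to 0.96, mmu-miR-666-5p -0.11 to 1.43, mmu-miR-127 -0.30 to 0.22, mmu-miR-487b -0.32 to 0.01, mmu-miR-154 -0.34 to 0.09, mmu-miR-337-3p -0.08 to 0.62, mmu-miR-369-5p -0.23 to 0.73, mmu-miR-382 -0.16 to 0.53, mmu-miR-409-5p -0.13 to 0.26, mmu-miR-494 -0.02 to 0.49, mmu-miR-543 on the first card -0.14 to 0.31 and rno-miR-381 -0.12 to 0.19. The control wells as reference gave mmu-miR-337-3p -0.18, mmu-miR-369-5p -0.09, mmu-miR-382 -0.24, mmu-miR-409-5p -0.20, mmu-miR-494 -0.14, mmu-miR-543 -0.34, rno-miR-381 -0.32, hsa-miR-493-3p -0.12 and mmu-miR-673-3p -0.35. The deposited way gave mmu-miR-337-3p -0.15, mmu-miR-369-5p -0.06, mmu-miR-382 -0.21, mmu-miR-494 -0.11, mmu-miR-543 -0.31, rno-miR-381 -0.29 and mmu-miR-337 on the second card 0.14. With the shared values kept in room air, hsa-miR-493-3p was at -0.12 and mmu-miR-673-3p at -0.15, and the latter was at -0.06 with a ceiling of 38. Centring on the median put mmu-miR-543 just under 0 (0.00 after rounding) and mmu-miR-337 on the second card at 0.13, and the first card's reference turned hsa-miR-136 (0.09), mmu-miR-541 (0.03) and that mmu-miR-337 assay (0.41). Late assays varied more than early ones in the median: the median within-group SD of first-card members was 0.32 under a mean Ct of 25 and 0.67 later.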
